A study of Solanum lycopersicum with 24 samples.

Results

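Proteinase inhibitors and related wound-defence enzymes were followed on 9 of the 10209 probe sets of a tomato (Solanum lycopersicum) array series. The members are the probe sets that the authors' deposited fold-change tables name ER1, mcpi, LOC543954, LOC544223 or Td, or give a title with the words proteinase inhibitor, and they stand for 7 genes. The arrays, 24 in all and of Affymetrix make, carry RNA from leaves of flowering plants in 8 groups of 3. In the drought experiment a susceptible and a tolerant genotype were each sampled as watered control plants and after 7 days without water. In the heat experiment a susceptible and a tolerant genotype were each sampled as unheated control plants and after 60 min at 40 C. Heated plants were in a growth chamber, while all controls stood in a greenhouse, so heat and chamber cannot be told apart. A heat response here means heated plants in the chamber against unheated plants in the greenhouse. No transgene or mutation is named for any group, the genotypes are named only by their susceptibility or tolerance, and no source used here says whether both experiments shared them. Nothing in the labels ties the 3 arrays of a group to separate plants, so the error behind each p-value may be technical.

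Tomato leaves that are chewed or crushed release systemin, a peptide cut from the precursor prosystemin, which sets off the synthesis of jasmonate from membrane lipids. Jasmonate then switches on late defence genes in damaged and in distant leaves. The best known of these encode small proteins that block the digestive proteases of insects. Inhibitor I acts mainly on chymotrypsin-like proteases, inhibitor II on trypsin- and chymotrypsin-like ones, and the metallocarboxypeptidase inhibitor on the enzymes that trim protein ends. Threonine deaminase and leucine aminopeptidase belong to the same late response and break down amino acids or peptides in the insect gut.

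Membership was selected on measured values, since names come only from the authors' deposited tables. These list probe sets chosen by a response to stress that differed between genotypes and reached a fold of 2 in at least 1 genotype. The drought list held 2222 probe sets and the heat list 1220, and 3 members stood in both, 3 in the drought list alone and 3 in the heat list alone. In an experiment whose list held a member, its values are therefore given as a description with no test. ER1, mcpi and LOC544223 could be tested in the drought experiment, and 1 of 2 probe sets of LOC543954, 1 of 2 of LOC543955 and cevi57 in the heat experiment. Absence from a list was itself decided on the same arrays, in part by the difference of responses. A test of that difference is therefore not independent of the list. The member closest to the fold minimum was ER1 under heat, with a fold of 2.23 in tolerant plants in the authors' deposited table. Outside the heat list, a probe set of LOC543955 reached a fold of 1.73 in heated tolerant plants.

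Levels are log2 signals, and a level is compared only between arrays of one experiment and for one probe set. Differences are on the log2 scale with the standard error of a limma fit over the 12 arrays of an experiment, and calls are at an adjusted p under 0.05 over 10101 probe sets. Signal near background was judged on 63 reporter probe sets that match no tomato gene. Where a group lay at or under their 95th percentile on at least 2 of 3 arrays, a difference from a brighter group is given as a bound. That percentile averaged 4.29 and 4.40 in the susceptible drought groups and 5.80 and 6.19 in the tolerant ones. Pairs of replicates had correlations of at least 0.997 among susceptible arrays, but of 0.919 to 0.963 among the tolerant drought arrays. Leaf photosynthesis markers (9 probe sets) averaged 10.85 to 10.97 on susceptible control and 9.86 to 9.92 on droughted arrays, and 10.98 to 11.06 and 9.53 to 9.79 on tolerant ones, and 1 of them lay near background in 7 of the 8 groups. Flower markers (6 probe sets) averaged 4.41 to 4.81 on susceptible drought arrays, 5.77 to 6.43 on tolerant control and 6.93 to 7.11 on tolerant droughted arrays, and fruit markers (3 probe sets) 6.66 to 7.17 and 9.07 to 9.75. The part of these marker changes in the drought responses was not tested. In bulk leaf RNA fewer cells of a type and less RNA per cell cannot be told apart.

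ER1 encodes an inhibitor I first described as an ethylene-regulated gene of ripening fruit. Under drought it rose strongly in both genotypes. Susceptible control plants read 5.77, 6.12 and 5.86, and droughted ones 10.42, 10.44 and 10.48. In tolerant plants the controls read 6.21, 5.31 and 5.74, with 2 arrays near background, and droughted plants 9.85, 9.58 and 9.92. Control and droughted arrays were thus far apart in either genotype, with no overlap. The response was 4.53 ± 0.21 in susceptible plants (adjusted p = 7.81e-08), a fold of 23.1, and ranked 27 from the highest of 10101 probe sets. In tolerant plants it was at least 3.83 (adjusted p = 3.06e-07), a fold of at least 14.2, or at least 1.91 on the log2 scale with the maximum of the reporters as limit. The difference between both responses was not called, at a fitted -0.50 with adjusted p = 0.214, and with the tolerant response as a bound its sign is not fixed. It was called without replicate 2 of the tolerant controls, at -0.72 with adjusted p = 0.037. Droughted tolerant plants were lower than droughted susceptible ones by 0.66 (adjusted p = 0.017), a call lost without replicate 2 of droughted tolerant plants at adjusted p = 0.055, with array weights at 0.067 and with quantile normalization repeated at 0.073. Fruit markers were higher on the tolerant drought arrays. On susceptible arrays they averaged 6.66 to 6.88 in control and 7.04 to 7.17 in droughted plants, with 1 of the 3 probe sets near background. The part of the fruit markers in the ER1 values was not tested.

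The heat values of ER1 lay close to background in most groups. Susceptible plants read 5.54, 5.22 and 5.09 as controls and 4.28, 3.88 and 3.60 after heat, the latter all near background. Tolerant plants read 5.34, 4.98 and 5.81 as controls, all near background on those arrays, and 6.68, 6.79 and 6.03 after heat. Heated plants thus read lower than controls in the susceptible and higher in the tolerant genotype, with no overlap of arrays in either. The response was -0.56 or lower in susceptible plants and at least 0.28 in tolerant ones. Heated tolerant plants were at least 1.78 above heated susceptible ones. With the maximum of the reporters as limit, that bound was at least 0.89. No bound was then left for either response, so both directions rest on the limit of background chosen.

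**Figure D1:**
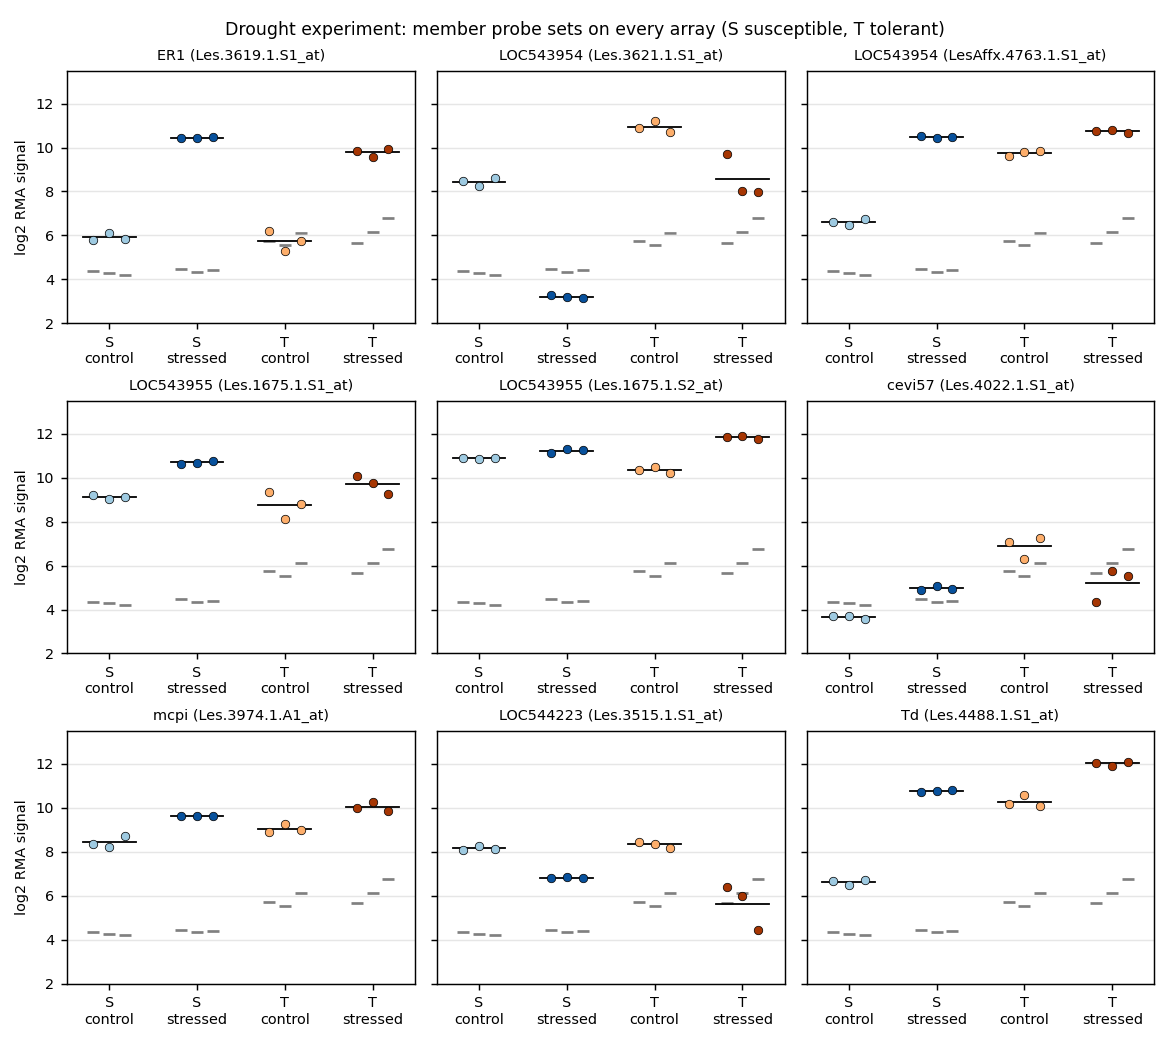
Each panel shows 1 member probe set on the 12 drought arrays, as log2 RMA signal (vertical axis) in the susceptible (S) and tolerant (T) genotype. Points are arrays, black lines are group means, and grey dashes mark the limit of background, taken from the reporters of each array. ER1 stands at 6.21 or less in both control groups and at 9.58 or more in both droughted groups, while the Les probe set of LOC543954 reads 8.25 to 8.60 in watered and 3.16 to 3.27 in droughted susceptible plants.

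LOC543954, the wound-induced inhibitor I gene, is covered by 2 probe sets that disagreed under drought. They are called here by the first letters of their identifiers, Les and LesAffx. On the Les probe set susceptible controls read 8.47, 8.25 and 8.60, and droughted plants 3.27, 3.19 and 3.16, all near background. Tolerant controls read 10.90, 11.23 and 10.69, and droughted plants 9.69, 8.04 and 7.97. Signal was lower after drought in both genotypes with no overlap, and replicate 1 of droughted tolerant plants stood apart from the other two. The response was -4.04 or lower in susceptible and -2.37 ± 0.39 in tolerant plants, or -2.93 without that array. On the LesAffx probe set the same RNA gave the opposite direction. Susceptible controls read 6.61, 6.45 and 6.77, and droughted plants 10.51, 10.44 and 10.47. Tolerant controls read 9.64, 9.80 and 9.84, and droughted plants 10.74, 10.81 and 10.65. The response was 3.86 ± 0.11 in susceptible and 0.98 ± 0.11 in tolerant plants. Both probe sets carry the same gene name and gene identifier in the authors' deposited tables, so the direction of the gene under drought is uncertain. They shared 1 feature, in that watered tolerant plants were above watered susceptible ones, by 2.50 on the first and 3.15 on the second.

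Under heat both probe sets of LOC543954 were higher in heated than in unheated tolerant plants. The Les probe set, which the heat list did not hold, read 9.15, 9.18 and 9.33 in unheated and 8.94, 9.26 and 9.07 in heated susceptible plants. In tolerant plants it read 11.16, 11.14 and 11.30 as controls and 11.86, 12.04 and 11.73 after heat. The susceptible arrays overlapped and the tolerant ones did not. It rose in tolerant plants by 0.68 ± 0.12 (adjusted p = 8.79e-04), with all 3 heated arrays above all 3 controls, whereas the susceptible difference of -0.13 ± 0.12 was not called (adjusted p = 0.549). The difference between both responses was 0.81 ± 0.17 (adjusted p = 0.006). With all 24 arrays in 1 fit these calls were lost, at adjusted p = 0.066 and 0.174. Tolerant plants exceeded susceptible ones by 1.98 as controls (adjusted p = 3.70e-06) and by 2.79 after heat (adjusted p = 8.79e-08), which ranked 42 and 18 from the highest. On the LesAffx probe set heated susceptible plants read 9.34, 9.48 and 9.20 against 5.99, 5.98 and 5.72 in their controls, a response of 3.44 ± 0.17. Tolerant plants read 6.25, 6.31 and 6.80 as controls and 8.26, 8.26 and 7.87 after heat, a response of 1.68 ± 0.17. Tolerant minus susceptible, heated plants differed by -1.21 on this probe set and by 2.79 on the Les probe set.

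LOC543955, the wound-induced inhibitor II gene, is also covered by a pair of probe sets, called S1 and S2 after the last part of their identifiers. S1 read 9.23, 9.04 and 9.12 in watered and 10.64, 10.69 and 10.77 in droughted susceptible plants, a difference of 1.57 ± 0.29. In tolerant plants it read 9.37, 8.11 and 8.81 as controls and 10.09, 9.77 and 9.26 after drought. These tolerant arrays overlapped, and the difference of 0.94 ± 0.29 rests on a control group with an SD of 0.63. S2 read 10.91, 10.83 and 10.91 in watered and 11.14, 11.29 and 11.27 in droughted susceptible plants, a difference of 0.35 ± 0.10. Tolerant plants read 10.34, 10.50 and 10.23 as controls and 11.85, 11.89 and 11.77 after drought, a difference of 1.48 ± 0.10. Both probe sets were thus higher after drought in both genotypes, with the larger value in susceptible plants on the first and in tolerant plants on the second.

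Under heat S1 separated the genotypes by a wide margin. Susceptible plants read 8.16, 8.29 and 8.20 as controls and 7.60, 7.73 and 7.53 after heat, lower by 0.59 ± 0.09. Tolerant plants read 10.08, 10.05 and 10.02 as controls and 12.47, 12.58 and 12.56 after heat, higher by 2.49 ± 0.09. Heated tolerant plants stood 4.92 above heated susceptible ones, a fold of 30.2. Unheated tolerant plants already stood 1.83 above unheated susceptible ones. On S2, which could be tested, susceptible plants read 10.25, 10.29 and 10.18 as controls and 10.83, 10.83 and 10.78 after heat. Tolerant plants read 10.15, 10.08 and 9.61 as controls and 10.70, 10.75 and 10.76 after heat. It rose by 0.57 ± 0.13 in susceptible (adjusted p = 0.009) and by 0.79 ± 0.13 in tolerant plants (adjusted p = 6.29e-04), on all 3 heated arrays of each genotype. The difference between both responses was 0.22 ± 0.19 and was not called (adjusted p = 0.380). The 2 probe sets therefore pointed opposite ways in heated susceptible plants.

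**Figure D2:**
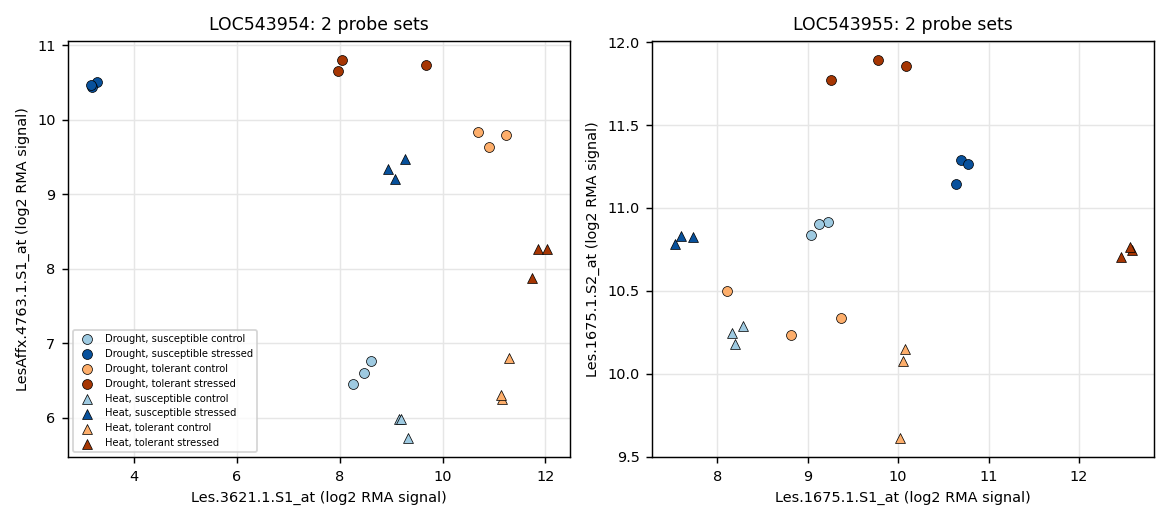
Each point is 1 of the 24 arrays, with the log2 RMA signal of one probe set of a gene on the horizontal axis and of its other probe set on the vertical axis. Circles are drought arrays, triangles heat arrays, and colours the 4 groups of an experiment. The droughted susceptible arrays lie at 3.16 to 3.27 on the Les and at 10.44 to 10.51 on the LesAffx probe set of LOC543954, far from a common line.

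The cevi57 gene (CEVI57 in RefSeq) encodes another inhibitor II. In the RefSeq gene table of assembly SLM_r2.1 it lies near LOC543955 on the same chromosome, with 5 genes between them, of which 3 code for proteins. Its signal was low throughout. Under drought susceptible plants read 3.71, 3.68 and 3.55 as controls, all near background, and 4.88, 5.09 and 4.95 after drought, higher by at least 0.68. Tolerant plants read 7.08, 6.29 and 7.26 as controls and 4.33, 5.75 and 5.53 after drought, the latter all near background, a difference of -0.68 or lower. The direction thus differed between genotypes, and the difference of responses was -1.37 or lower. Watered tolerant plants were at least 2.59 above watered susceptible ones, while droughted plants of both genotypes overlapped. With the maximum of the reporters as limit, no bound was left for the tolerant response, the difference of responses or the watered plants. In the heat experiment all 4 groups lay near background on at least 2 arrays and ranged from 3.93 to 5.35, so no difference is given. The fit called cevi57 higher in tolerant control plants (adjusted p = 0.006) and in heated tolerant plants (adjusted p = 0.015), within a range where signal was not told from background. The second of these calls was lost without replicate 2 of heated susceptible plants, at adjusted p = 0.055. With all 24 arrays in 1 fit both were lost, at adjusted p = 0.054 and 0.113, and the first also with quantile normalization repeated, at adjusted p = 0.089.

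The metallocarboxypeptidase inhibitor mcpi blocks enzymes that remove amino acids from protein ends. Under drought it rose in both genotypes. Susceptible plants read 8.35, 8.20 and 8.74 as controls and 9.65, 9.64 and 9.63 after drought. Tolerant plants read 8.91, 9.27 and 9.00 as controls and 9.98, 10.28 and 9.85 after drought. All droughted arrays lay above all control arrays of their genotype. The response was 1.21 ± 0.16 in susceptible (adjusted p = 1.95e-04) and 0.98 ± 0.16 in tolerant plants (adjusted p = 6.71e-04), the latter at adjusted p = 0.063 with array weights. Their difference of -0.23 ± 0.23 was not called (adjusted p = 0.488). Watered tolerant plants were higher than watered susceptible ones by 0.63 (adjusted p = 0.008). Droughted tolerant plants were 0.40 above droughted susceptible ones, at adjusted p = 0.052. This was called at adjusted p = 0.032 to 0.049 without replicate 2 or 3 of the susceptible controls, replicate 2 of the tolerant controls or replicate 3 of droughted tolerant plants, and at 0.019 with quantile normalization repeated.

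In heated plants mcpi differed widely between genotypes. Susceptible plants read 7.30, 7.43 and 7.44 as controls and 5.95, 6.09 and 5.92 after heat, lower by 1.41 ± 0.16. Tolerant plants read 7.31, 7.50 and 6.86 as controls and 9.52, 9.39 and 9.71 after heat, higher by 2.32 ± 0.16. The controls of both genotypes overlapped, and the heated groups did not. The difference of responses was 3.73, and heated tolerant plants stood 3.56 above heated susceptible ones, a fold of 11.8. The heat list had chosen mcpi by that difference of responses.

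**Figure D3:**
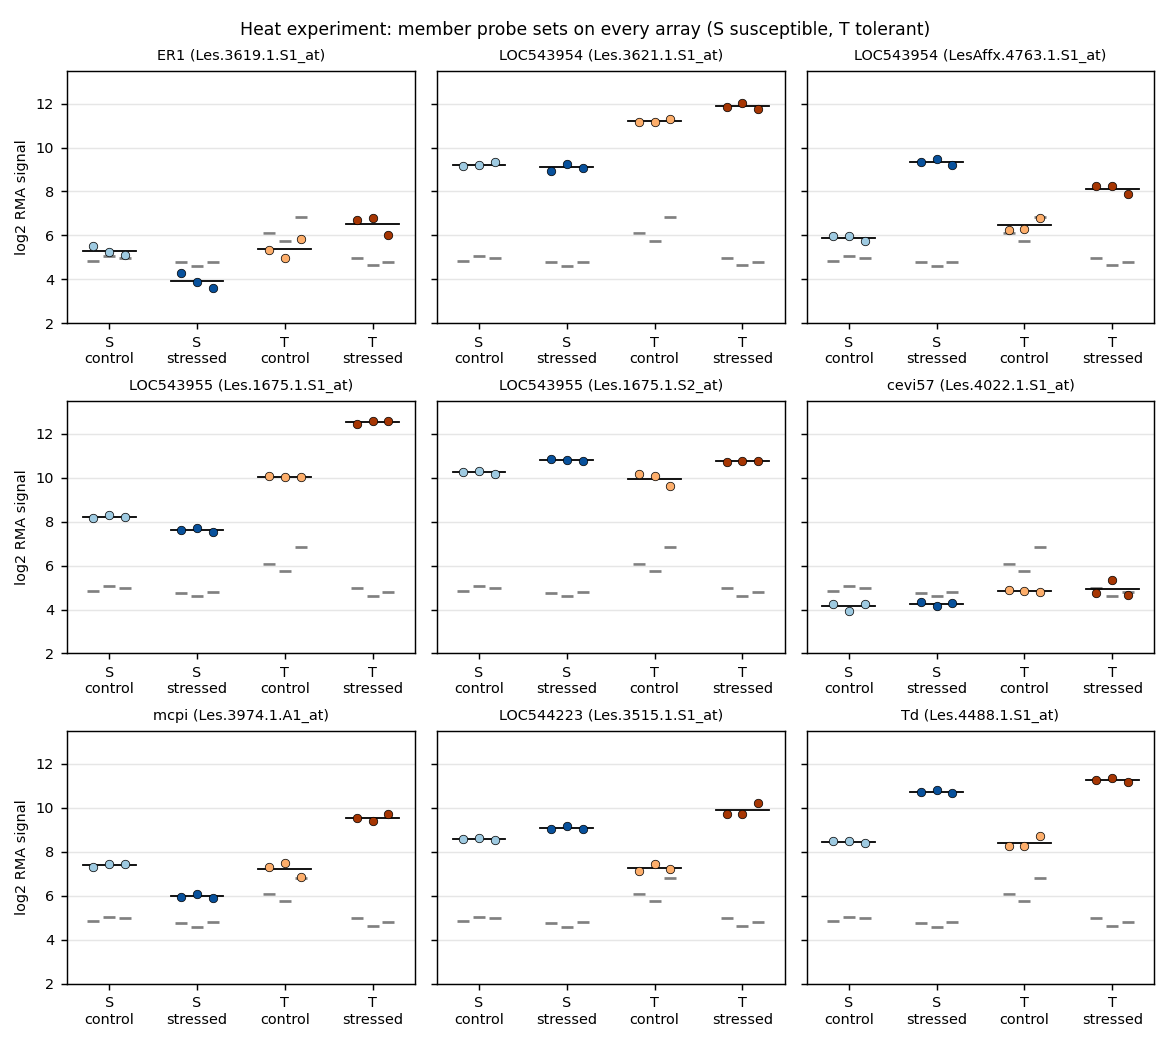
Each panel shows 1 member probe set on the 12 heat arrays, as log2 RMA signal (vertical axis) in the susceptible (S) and tolerant (T) genotype. Points are arrays, black lines are group means, and grey dashes mark the limit of background, taken from the reporters of each array. For mcpi the controls overlap near 7, heated susceptible arrays lie at 5.92 to 6.09 and heated tolerant arrays at 9.39 to 9.71.

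LOC544223 is titled a wound-inducible carboxypeptidase, an enzyme that removes amino acids from the end of a protein. Under drought it was lower in both genotypes, as was the Les probe set of LOC543954, while ER1 and mcpi were higher. Susceptible plants read 8.10, 8.28 and 8.14 as controls and 6.80, 6.87 and 6.80 after drought. Tolerant plants read 8.46, 8.37 and 8.18 as controls and 6.42, 5.98 and 4.46 after drought, with 2 of these arrays near background. The controls of both genotypes overlapped and every droughted array lay below every control. The gene fell by 1.35 ± 0.39 in susceptible plants (adjusted p = 0.018) and changed by -1.89 or lower in tolerant ones (adjusted p = 2.48e-04). The susceptible call was lost with quantile normalization repeated and without replicate 2 of its controls or replicate 1 or 3 of its droughted plants, at adjusted p = 0.051 to 0.063. The difference of responses, -0.54 or lower, was not called (adjusted p = 0.080). It was called without replicate 1 of droughted tolerant plants, at a measured -1.77, and without replicate 3, at -0.79, as well as with all 24 arrays in 1 fit (adjusted p = 0.015) and with array weights (adjusted p = 0.031). Droughted tolerant plants lay -0.38 or lower against droughted susceptible ones (adjusted p = 0.020), at adjusted p = 0.053 without replicate 2 of droughted susceptible plants and 0.086 with only the 6 arrays compared. The measured value of that last difference, -1.20, became -0.62 without replicate 3 of droughted tolerant plants.

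Heated plants had more LOC544223 signal than their controls in both genotypes. Susceptible plants read 8.59, 8.64 and 8.55 as controls and 9.06, 9.18 and 9.05 after heat, higher by 0.50 ± 0.14. Tolerant plants read 7.13, 7.43 and 7.21 as controls and 9.71, 9.74 and 10.21 after heat, higher by 2.63 ± 0.14. Tolerant minus susceptible, the difference was -1.34 in unheated and 0.79 in heated plants.

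Td (TD2 in RefSeq) encodes threonine deaminase, which breaks down threonine, an amino acid that insects need from their food. Its signal was higher after either stress in either genotype. Under drought susceptible plants read 6.69, 6.48 and 6.73 as controls and 10.75, 10.77 and 10.82 after drought, higher by 4.15 ± 0.14 and 17.7-fold. Tolerant plants read 10.17, 10.60 and 10.07 as controls and 12.06, 11.92 and 12.11 after drought, higher by 1.75 ± 0.14 and 3.36-fold. The smaller tolerant value started from a control level 3.65 above that of watered susceptible plants. Under heat susceptible plants read 8.48, 8.50 and 8.42 as controls and 10.72, 10.80 and 10.69 after heat, higher by 2.27 ± 0.13. Tolerant plants read 8.26, 8.25 and 8.74 as controls and 11.29, 11.38 and 11.20 after heat, higher by 2.88 ± 0.13. In this experiment the controls of both genotypes overlapped, and every heated array lay above every control.

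**Figure D4:**
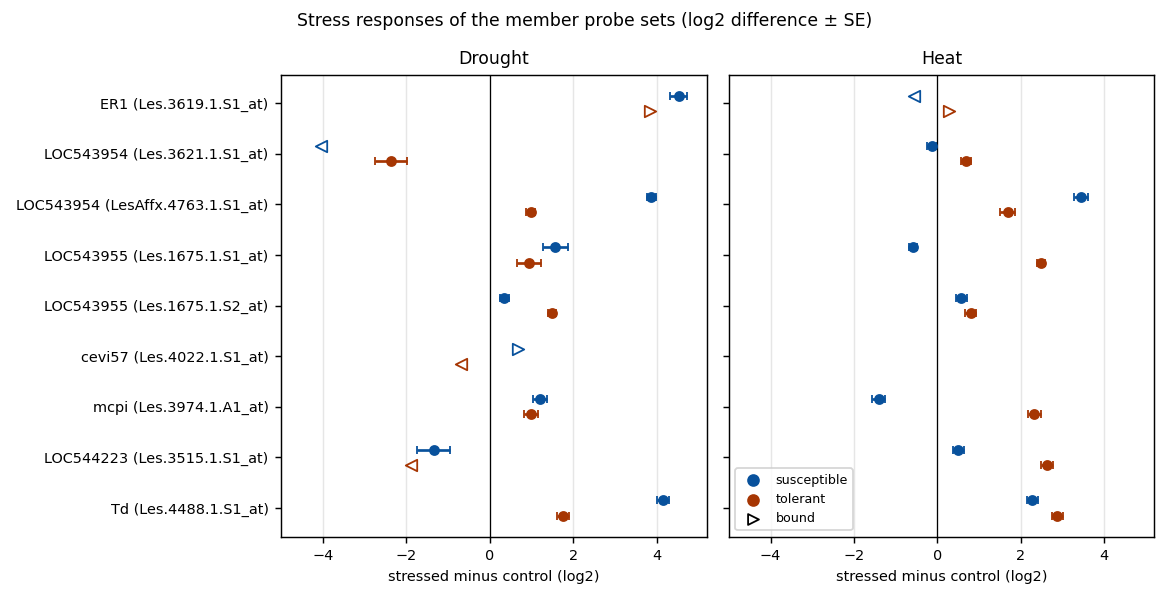
Differences between stressed and control plants (horizontal axis, log2, with the standard error of the fit) for the 9 member probe sets, in drought (left) and heat (right). Filled circles are measured differences and open triangles are bounds that point away from 0, to the left for a bound below 0. A probe set with no difference given has no symbol. Td is to the right of 0 in all 4 comparisons, and mcpi and the S1 probe set of LOC543955 lie on opposite sides of 0 in the 2 genotypes under heat.

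In heated tolerant plants arrays of 8 of 9 member probe sets lay above their controls with no overlap, and those of cevi57, near background, overlapped. The 9 differences had a median of 1.68 against 0.01 over all 10101 probe sets, of which 55.1% were called, 29.6% higher and 25.5% lower. In heated susceptible plants 5 were above and 4 below 0, at a median of 0.12 against 0.00, with 21.3% of all probe sets called. Under drought 7 of 9 were above 0 in susceptible plants, at a median of 1.32 against 0.05 and with 42.8% of all probe sets called. In droughted tolerant plants 6 of 9 were above 0, at a median of 0.98 against 0.11 and with 50.6% called. Shares of all probe sets without overlap or above 0 were not counted, and the shares called are a different measure. The lists had chosen 6 of the 9 members in each experiment, so these counts describe the members and nothing is read from them.

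Only the members that an experiment's list did not hold could be set against the share of all probe sets called. For drought, 3 of 3 were called in each genotype, ER1 and mcpi higher and LOC544223 lower. Of all probe sets 23.1% were called higher and 19.7% lower in susceptible plants, and 27.4% and 23.2% in tolerant plants. None of the 3 was called for a difference of drought responses by limma, and 1 had an unadjusted p under 0.05. In susceptible plants ER1, mcpi and LOC544223 changed by a fold of 23.1, 2.31 and 2.55, above the fold minimum of the drought list. Their absence from that list thus goes with no called difference between genotypes on these same arrays. The limma result was not independent of it and is not set against the 37.2% of all probe sets called. For heat, 1 of 3 was called in susceptible plants and 2 of 3 in tolerant ones, against 21.3% and 55.1%. The difference of heat responses was called for 1 of 3. Absence from the heat list was decided in part by that difference on these arrays. The count is therefore not set against the 27.6% of all probe sets called. Between genotypes, 1 of 3 was called in watered and 2 of 3 in droughted plants, against 58.5% and 67.8%, and 2 of 3 in unheated and 2 of 3 in heated plants, against 58.1% and 31.3%. The calls in unheated and in heated plants include cevi57, whose signal lay near background. With 3 probe sets an experiment, nothing particular to the members is read from these shares.

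In the drought experiment the control plants of both genotypes differed for several members before any stress. Td and the LesAffx and Les probe sets of LOC543954 were 3.65, 3.15 and 2.50 higher in watered tolerant plants, and cevi57 at least 2.59 higher. The S2 probe set of LOC543955 was 0.53 lower there with no overlap of arrays, and S1 was 0.37 lower with overlapping arrays. ER1 and LOC544223 did not differ between watered genotypes by a called amount, at adjusted p = 0.518 and 0.733. The bacterial spike-in bioB averaged 5.73 and 5.84 in the susceptible and 10.9 and 11.5 in the tolerant drought groups, and reporter probe sets had medians of 3.08 and 3.10 against 4.06 and 4.38. The excess of 3' over 5' signal of control transcripts, a measure of RNA integrity, averaged 1.25 and 0.74 in susceptible and 2.89 and 1.64 in tolerant drought groups. These measures moved with genotype, as did the flower and fruit markers, and their part in the genotype differences was not tested. In the heat experiment bioB averaged 6.17 to 6.90 in all 4 groups, and the 3' excess 3.58 and 3.15 in susceptible against 4.45 and 4.13 in tolerant groups. The tolerant heat controls, on which every tolerant heat response rests, stood apart from the other 3 heat groups. Their reporter median was 4.43 against 3.42 to 3.54, the 95th percentile of the reporters averaged 6.22 against 4.72 to 4.96, and the median over all probe sets averaged 7.19 against 7.39 to 7.50. Their replicates correlated at 0.946 to 0.989. Leaf markers averaged 10.00 to 10.61 on these arrays and 10.73 to 10.76 on heated tolerant ones, and fruit markers 7.78 to 8.15 and 6.74 to 7.16. The part of these measures in the tolerant heat responses was not tested. With arrays centred on their medians, tolerant heat responses were 0.40 on the Les probe set of LOC543954 (adjusted p = 0.015), 0.51 on S2 of LOC543955 (adjusted p = 0.004) and 2.21 on S1, and that of cevi57 turned from 0.07 to -0.21 with no call under either.

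Other genes of wound and jasmonate signalling and of wound-induced leaf defence were followed on 18 probe sets with 16 symbols, of which 3 were outside the drought list and 10 outside the heat list. Values of the others are descriptions in the experiment that listed them. In susceptible droughted plants 6 were called higher and 6 lower, and in tolerant droughted plants 9 higher and 7 lower, against 42.8% and 50.6% of all probe sets called in either direction. The drought list held 15 of the 18, so nothing is read from these counts. The signal precursor systemin fell by 3.27 on the log2 scale in droughted susceptible plants and rose by 0.90 in tolerant ones. Its second probe set fell by 2.87 in susceptible and rose by 1.15 in tolerant plants. The first of these can match related transcripts. In the same droughted susceptible plants member probe sets lay on either side of 0. ER1 and mcpi were among those above, and LOC544223 and the Les probe set of LOC543954 were those below. The drought list had chosen systemin and most of the members on these same arrays. A link between systemin and the members was not tested. The largest drought difference in susceptible plants was LOC543932, titled a wound or stress protein, at -5.61 or lower. In tolerant plants the fit's largest difference was that of LEJA2, a jasmonate-linked gene, whose controls lay near background, so that it is given as at least 1.63 higher (adjusted p = 8.48e-04). The largest difference there between groups above background was 2.68, for the leucine aminopeptidase lap2.

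Under heat, 8 of the 18 probe sets stood in the heat list, which had chosen them by a response that differed between genotypes. In heated tolerant plants 12 of 18 were called higher and 1 lower, at a median of 0.70 against 0.01 over all probe sets. In susceptible plants 2 were called higher and 7 lower. Over all probe sets 55.1% were called in tolerant and 21.3% in susceptible plants. Of the 10 probe sets that the heat list did not hold, 6 rose in tolerant plants and none was called lower, against 29.6% of all probe sets called higher and 25.5% lower. These were the hydroperoxide lyase HPL (0.71), systemin on both probe sets (0.80 and 0.47), the jasmonate synthesis enzyme opr (0.69), the aminopeptidase app2 (0.87) and LEJA1 (0.68). The smaller systemin value lost its call with arrays centred on their medians (0.19, adjusted p = 0.223), with quantile normalization repeated (adjusted p = 0.064) and with only the 6 arrays compared (adjusted p = 0.057). The opr call was lost with all 24 arrays in 1 fit (adjusted p = 0.116) and with only the 6 arrays compared (adjusted p = 0.051). LOC100125889, titled a phospholipase D, differed by -0.25 and was called lower at -0.38 to -0.53 with quantile normalization, median centring, array weights or without replicate 3 of the tolerant controls. The jasmonate synthesis enzyme aos was likewise called lower, at -0.64 without that array and at -0.52 with array weights. In susceptible plants 1 of these 10 rose, LEJA1 by 0.77, and 1 fell, aos by 1.32. A test of the difference of responses called 3 of the 10, HPL, 1 probe set of systemin and app2, all higher in tolerant plants. Their absence from the heat list was decided in part by that difference on these arrays. The count is therefore not set against the 27.6% of all probe sets called. With 10 probe sets nothing particular to the list is read from these shares. The app2 call was lost without any 1 of 6 arrays, namely each susceptible control, replicates 1 and 3 of heated susceptible plants and replicate 2 of heated tolerant ones, at adjusted p = 0.058 to 0.071. LOC100125889 was called lower in tolerant plants, at -0.42 to -0.51, under the same 4 settings that called its tolerant response. The aos difference of 1.07 was called without replicate 2 (1.38) or 3 (0.69) of the tolerant controls and with array weights (0.82). The largest heat difference in susceptible plants was loxD, a lipoxygenase that starts jasmonate synthesis, which fell by 2.33 ± 0.18. In tolerant plants it was a probe set with several gene symbols, not named here, which rose from 8.14 to 11.90, by 3.76 ± 0.13.

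**Figure D5:**
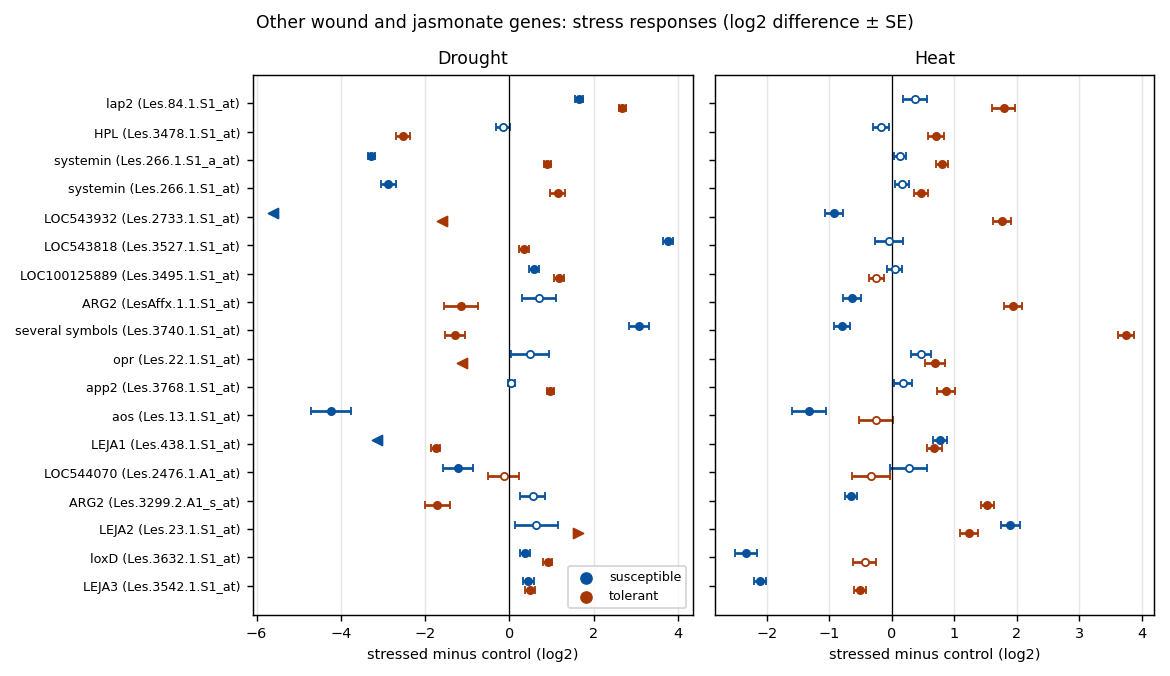
Differences between stressed and control plants (horizontal axis, log2, with the standard error of the fit) for the 18 probe sets of wound and jasmonate genes, in drought (left) and heat (right). Filled circles passed an adjusted p of 0.05, open circles did not, and triangles are bounds that point away from 0. In heated tolerant plants 12 of 18 were called higher, and systemin lies on opposite sides of 0 in the 2 genotypes under drought.

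The named genes whose signal ran most like that of a member were taken from 451 probe sets with 1 symbol in the authors' deposited tables. They were ranked by Pearson correlation over the 24 arrays after each probe set was centred within its experiment. Those tables chose probe sets by a response that differed between genotypes, and probe sets outside them were not searched. These correlations are descriptions over arrays that share groups and genotypes. ER1 ran most like the lipid transfer protein gene ltpg2 (0.917), the arabinofuranosidase gene LeARF1 (0.908) and the galactosidase gene tEG3 (0.875). The mcpi gene ran most like LeARF1 (0.818), FRO1 (0.779) and pi1 (0.772), so LeARF1 stood high for both inhibitors. The Les probe set of LOC543954 ran most like LOC543604 (0.970), spe4 (0.934) and THM6 (0.933). LOC544223 ran most like the expansin gene exp9 (0.875), LOC544153 (0.854) and APX2 (0.832), a cytosolic ascorbate peroxidase. Td ran most like the ethylene receptor gene ETR4 (0.875), LOC543870 (0.861), titled a protein kinase, and LOC778198 (0.841).

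The values above were set against the authors' deposited tables, which give a fold for 24 combinations of member, experiment and genotype. All 24 had the same direction as the differences computed here. The widest gap was 0.85 on the log2 scale, for the Les probe set of LOC543954 in droughted tolerant plants, where the authors' deposited table gives a fold of 2.86 and the array values give 5.18. For ER1 in heated susceptible plants the authors' deposited table gives 1.98 and the array values give 2.57.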

How the data were processed

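The authors deposited a log2 value for each probe set and array. RMA 1.0 and the Affymetrix Expression Console made these values, according to the submitters' processing notes. The sources do not say whether all 24 arrays were normalized together. The authors' deposited tables give, per experiment, a fold as a ratio of stressed to control means with its direction. Per the file headers, they list probe sets with a corrected p under 0.05 for the interaction of genotype and treatment in a 2-way ANOVA and a fold of at least 2 in 1 genotype or more. Gene names came from those tables, and 9 of 9 members matched a RefSeq gene by identifier.

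Control probe sets with AFFX names, 108 in number, took no part in tests, and 10101 remained. Each experiment was fitted on the deposited values as 4 group means with limma 3.58.1 in R 4.3.3 (lmFit, eBayes), with Benjamini-Hochberg adjustment over all 10101 probe sets. The fit assumes a single spread per probe set, although tolerant arrays varied more. It was tested on simulated data with that same single spread, so the test does not bear on unequal spread. For a bound, arrays below the 95th percentile of their 63 reporters were raised to it, and calls stayed those of the fit. Sample titles gave each array its group and replicate number, and the number of arrays limits the precision.

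The members and the lists of other genes and markers were chosen with earlier results of these data known. All members are named, the 3 genes most like each of 5 members, and, of the wound and jasmonate list, systemin, the largest difference of each stress response and the genes called outside the heat list. Alternatives covered normalization, dim probe sets, the arrays in the fit, array weights, the replicate number as a block, each array left out, and the limit of background. Promoter motifs and sequences were not analysed here.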

Additional observations from a re-analysis of the deposited data

Results flagged for a closer look

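Members whose response to stress had opposite directions on the arrays of the 2 genotypes are listed here. For the S1 probe set of LOC543955, heat responses were 2.49 in tolerant and -0.59 in susceptible plants, a difference of 3.08 that was not tested. For mcpi the heat responses were 2.32 and -1.41, a difference of 3.73 that was not tested. For ER1 the heat responses were at least 0.28 in tolerant and -0.56 or lower in susceptible plants, a difference of at least 0.84 that was not tested. For cevi57 the drought responses were -0.68 or lower in tolerant and at least 0.68 in susceptible plants, a difference of -1.37 or lower that was not tested. These 4 stood in the list of the experiment in question, which had chosen them by that difference. With the maximum of the reporters as limit, no bound was left for either ER1 heat response or for the tolerant cevi57 response. For the Les probe set of LOC543954 the difference of heat responses was 0.81 ± 0.17 (adjusted p = 0.006), with 3 of 3 heated tolerant arrays above their controls and overlapping susceptible arrays. This call was lost with all 24 arrays in 1 fit, at adjusted p = 0.174. Absence of this probe set from the heat list was decided in part by the same difference, so the test is not independent of the list.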

How the results depend on the processing

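With array weights the number of probe sets called went from 4324 to 7481 for the susceptible drought response, from 2150 to 5480 for the susceptible heat response, from 2786 to 7197 for the difference of heat responses and from 3157 to 6932 for heated plants. The estimate of these weights stopped before it converged in 1 experiment. With only the 6 arrays compared, the counts were 7502 and 4431 for the susceptible drought and heat responses, and 3109 (from 5110) and 3174 (from 5564) for the tolerant ones. Leaving out 1 array gave 1794 to 4512 for the difference of heat responses, with 1794 without replicate 3 of heated susceptible plants, 1855 without replicate 1 of their controls and 4512 without replicate 2 of the tolerant controls. LOC543818 of the wound and jasmonate list, near background under heat, went from -0.13 to 0.44 in tolerant plants and from -0.08 to 0.57 for the difference of responses, both with array weights. Of the tested member values under an alternative, 525 kept their side of the threshold, 18 passed it and 16 lost it, and none changed sign as a call. Of the 18, 9 were mcpi between droughted genotypes, at adjusted p = 0.019 to 0.049. With the maximum of the reporter probe sets as limit, ER1 in droughted tolerant plants was at least 1.91, and no bound was left for cevi57 in tolerant plants, ER1 heat responses and LOC544223 in droughted tolerant plants. After group means were subtracted, 1 of 18 same-numbered pairs of arrays in drought and 8 of 18 in heat correlated above 0.1. The median correlation of same-numbered pairs was -0.009 in drought, against 0.004 for other pairs. In heat it was 0.08 against -0.04, so a pairing by replicate number is not excluded there. With the replicate block the drought counts were 4165, 4947, 3572, 5782 and 6765 and the heat counts 2075, 5451, 2639, 5810 and 2984, and no member call changed. The cause of these changes was not tested. Signal near background limits cevi57 throughout and ER1 under heat.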

Other observations

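The gap between stressed tolerant and stressed susceptible plants was not the same after drought and after heat on several inhibitor probe sets. The paired probe sets of LOC543954 and of LOC543955 did not share a pattern. For mcpi, the difference, tolerant minus susceptible, was 0.40 after drought and 3.56 after heat. For the S1 probe set of LOC543955 it was -0.99 after drought and 4.92 after heat, but on its S2 probe set 0.61 and -0.07. For ER1 it was -0.66 after drought and at least 1.78 after heat. For the LesAffx probe set of LOC543954 it was 0.26 after drought and -1.21 after heat, but on its Les probe set at least 4.16 and 2.79. Whether these differences differ between the experiments was not tested, since no source used here says that both used the same genotypes. Selection by the lists also bears on these values. ER1 and mcpi stood in the heat list alone, which chose by a difference of heat responses between genotypes. The S2 probe set of LOC543955 and the Les probe set of LOC543954 stood in the drought list alone. The values are descriptions, and nothing is read from their contrast.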
